A study of Mus musculus with 8 samples.

Results

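Satellite cells, the stem cells of skeletal muscle, are recognised and sorted by proteins on their surface, and the transcripts of 10 such proteins are described here across 8 libraries of sorted muscle stem cells. The genes were chosen by name (Calcr, Cd34, Vcam1, Sdc4, Sdc3, Cdh15, Cxcr4, Chodl, Megf10 and Tenm4), and all 10 were found among the 25237 rows of the deposited table that carry a gene symbol. All 10 also passed the filter on low values, a mean of at least 10 normalized counts, which left 14022 genes. A normalized count is a read count divided by 1 size factor per library.

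The tested libraries came from mice that received ketones (n = 4, ketones libraries 1 to 4) and the control libraries from mice that received phosphate-buffered saline, PBS (n = 4, PBS libraries 1 to 4). All mice were male, 2 to 4 months old and wild type by the design text. Cells were purified from hindlimb muscle by fluorescence-activated sorting as VCAM1-positive and CD31-, CD45- and Sca1-negative, so the protein of one gene described here, Vcam1, was itself the positive sort marker in both groups. The sources used here give no dose, duration or ketone compound. Nor do they state that the libraries are from separate animals, and the p-values here reflect variation among libraries, some of which may be technical. As strain, the labels give C57BL/7, C57BL/8, C57BL/9 and C57BL/9 for ketones libraries 1 to 4 and C57BL/6 for PBS. If these name strains, strain and treatment cannot be told apart.

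A satellite cell lies between the muscle fiber and its basement membrane, and its surface proteins serve contact with both. M-cadherin (Cdh15) faces the fiber, syndecans carry heparan sulfate chains that bind growth factors and matrix, and the calcitonin receptor (Calcr) holds the cell in quiescence in the mouse. Several of these proteins are shared with other cells. CD34 is also a protein of endothelial and blood progenitor cells, and VCAM1 and CXCR4 are found on endothelial and blood cells.

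The 3 surface genes that were lower in the ketones libraries were Cdh15, Calcr and Vcam1, and 1, Cd34, was higher. Cdh15 was at 6282 ± 1957 normalized counts in ketones and 20038 ± 688 in PBS libraries (mean ± SD, n = 4 each). Calcr was at 4604 ± 1566 in ketones and 8352 ± 492 in PBS libraries, and Vcam1 at 24880 ± 10765 in ketones and 42043 ± 3281 in PBS libraries. Cd34 was at 14811 ± 2445 in ketones and 10699 ± 505 in PBS libraries. By limma, with Benjamini-Hochberg adjustment over all 14022 genes and a threshold of 0.05, 4 of the 10 genes changed. In the same fit 25.7% of all tested genes changed, 12.8% as higher and 12.8% as lower in ketones. The groups did not overlap for 5 of the 10 genes, against 28.3% of all tested genes. The median log2 difference (ketones minus PBS) was 0.06 over the 10 genes and -0.01 over all tested genes, and the median size of the difference was 0.41 in both.

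Before these values are read, 2 features of the libraries have to be set beside them. Recovered depth was 19174005 to 36870537 reads, and the lowest count of any of the 10 genes in any library was 440 reads (Cxcr4 in PBS library 4). Ketones libraries 1 and 2 stood apart from the other 6 in the ribosomal RNA precursor Rn45s, with 363069 and 396262 normalized counts against 60108 to 118863 in the others, and likewise in Lars2. All 17 listed endothelial genes were higher in ketones (median log2 difference 2.65), and their summed level ran from 37896 to 92135 normalized counts in ketones and from 10289.9 to 13584 in PBS libraries, with none of the 17 at 0 in any library. Other listed markers moved as well, with 8 of 12 smooth muscle and pericyte genes higher and 2 lower, 6 of 12 fibro-adipogenic genes higher and 3 lower, 6 of 12 tested blood and immune genes higher, 7 of 10 Schwann cell genes higher and 9 of 12 myofiber genes higher. Summed levels were 25749 to 40303 in ketones and 37074 to 40113 in PBS libraries for the smooth muscle and pericyte list, and 65659 to 117192 in ketones and 111482 to 155543 in PBS libraries for the fibro-adipogenic list. They were 8511, 1293, 2337 and 4939 in ketones libraries 1 to 4 and 773 to 1076 in PBS libraries for the blood and immune list, 17010.2 to 22439 in ketones and 14443 to 15411 in PBS libraries for the Schwann cell list, and 28896 in ketones library 1, 4218 to 5569 in the other ketones libraries and 3654 to 4833 in PBS libraries for the myofiber list. A sum follows the most abundant genes of its list. In PBS libraries the most abundant smooth muscle and pericyte gene was Notch3, at 24045 ± 1284, against 7596 ± 1414 in ketones. The most abundant fibro-adipogenic gene was Gsn, at 52976 ± 12260 in ketones and 74388.5 ± 9768 in PBS libraries. The median log2 difference was positive in each of these cell type lists, at 0.82 for the fibro-adipogenic and 1.95 for the Schwann cell list. Ketones library 1 was the highest of the 8 in both the blood and the myofiber sums. Of the genes that head these lists, Acta2 of smooth muscle fell (log2 difference -0.71, adjusted p = 0.0368 by limma), Acta1 of fibers rose (1.92; 4572 ± 5191 normalized counts in ketones and 831 ± 137 in PBS libraries), and Pdgfra of fibro-adipogenic cells (0.59) did not pass. The part of other cells' RNA in the results on the surface genes was not tested.

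Of the genes whose proteins the sort gated out, Pecam1 and Ly6a were higher in ketones and Ptprc did not pass (adjusted p = 0.217 by limma). Pecam1, which encodes CD31, had 4259.5, 5606, 2130.4 and 4935 normalized counts in ketones libraries 1 to 4, against 680.02, 649, 907 and 694 in PBS libraries 1 to 4. Ly6a, which encodes Sca1, had 6102, 5665, 2319.6 and 5543 in ketones, against 506, 569, 514 and 549.6 in PBS libraries. Ptprc, which encodes CD45, had 298.6 in ketones library 1 and 21.1 to 30.1 in the other ketones libraries, against 16.1 to 28.4 in PBS libraries. In bulk RNA, fewer cells of a type and less RNA per cell cannot be told apart.

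The label of muscle stem cells was checked with 10 genes outside the surface set, and all 10 were above 0 in every library. The transcription factor gene Pax7, which defines satellite cells, had 1859, 1794, 2014 and 1500.1 normalized counts in ketones, against 1959, 2541, 1858 and 2141 in PBS libraries. Pax7 did not pass (log2 difference -0.24, adjusted p = 0.265), nor did Myf5 (-0.39), Fgfr4 (-0.53), Heyl (0.07) or Des (0.03). The other 5 fell: Itga7, which encodes the laminin receptor subunit of satellite cells (-1.56), the transcription factor gene Msc (-1.61), Chrdl2 (-1.11), Asb5 (-1.15) and Sox8 (-0.91). The median of these 10 genes was -0.72. Each library's mean log2 level of the 10 differed from the PBS mean by -0.87 to -0.58 in ketones libraries.

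**Figure D1:**
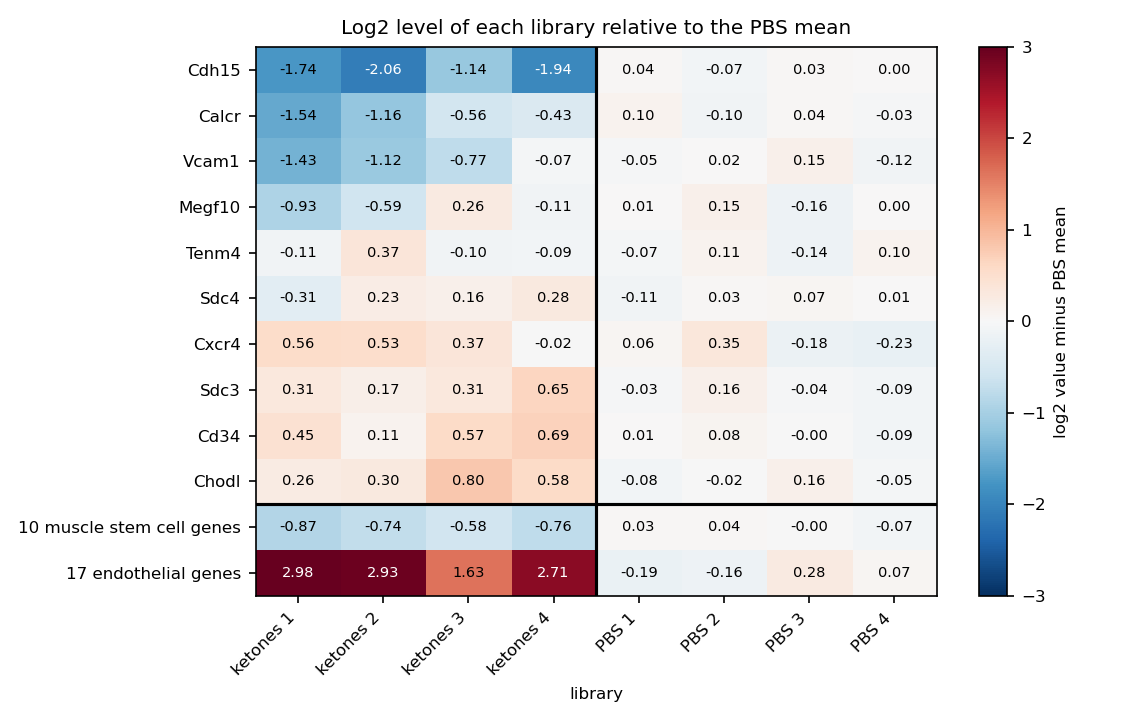
Log2(normalized count + 1) of each surface gene in each library minus the mean of the 4 PBS libraries, with the means of 10 muscle stem cell genes and 17 endothelial genes below the line. Columns are the 4 ketones and the 4 PBS libraries, red is higher and blue lower; Cdh15 is blue in all 4 ketones libraries, at -2.06 to -1.14, and the PBS columns are pale.

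Promoter sequence is shown for 2 genes that were lower, Cdh15 and Calcr, and for Chodl, which was not, to set their E-boxes side by side. An E-box is the motif CANNTG, which myogenic factors and many other proteins bind. The sequences are from RefSeq on GRCm38.p6, 250 bases before and 50 after the annotated start, 5′ to 3′ on the gene's strand, with E-boxes in capitals. Cdh15 is from chr8:122848124-122848423 (plus strand), Chodl from chr16:78930698-78930997 (plus strand) and Calcr from chr6:3764664-3764963 (minus strand). RefSeq and GENCODE, the source of the gene coordinates given below, can place a start at different bases. The Cdh15 window lies wholly inside the gene as GENCODE places it (122847966 to 122867397). So do the Sdc4 window, the Calcr window not shown and the Tenm4 window with 3 E-boxes, each inside its own gene.
Cdh15: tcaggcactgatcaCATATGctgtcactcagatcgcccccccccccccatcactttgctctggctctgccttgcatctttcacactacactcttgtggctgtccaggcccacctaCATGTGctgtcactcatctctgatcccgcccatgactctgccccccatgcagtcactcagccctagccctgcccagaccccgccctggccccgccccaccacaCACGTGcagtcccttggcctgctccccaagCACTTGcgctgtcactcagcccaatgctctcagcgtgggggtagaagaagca
Chodl: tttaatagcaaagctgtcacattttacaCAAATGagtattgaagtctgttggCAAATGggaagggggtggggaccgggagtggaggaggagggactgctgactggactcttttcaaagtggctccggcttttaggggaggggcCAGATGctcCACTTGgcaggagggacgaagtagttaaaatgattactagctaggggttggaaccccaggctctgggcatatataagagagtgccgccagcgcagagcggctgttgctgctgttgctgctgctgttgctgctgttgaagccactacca
Calcr: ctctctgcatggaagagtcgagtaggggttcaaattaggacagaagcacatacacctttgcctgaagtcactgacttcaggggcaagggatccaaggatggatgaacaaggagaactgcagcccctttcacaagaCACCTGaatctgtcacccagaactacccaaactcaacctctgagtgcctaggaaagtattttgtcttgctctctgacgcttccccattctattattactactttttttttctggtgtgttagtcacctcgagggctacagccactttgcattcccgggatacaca
Cdh15 and Chodl each held 4 E-boxes. Of the 32851 promoters of this length in the table, 72.3% held at least 1 E-box and 6.49% held at least 4. The motif reads alike on both strands, and no other motif was searched. The Calcr window shown held 1 and a second Calcr start held 0. Cd34, Sdc4, Sdc3 and Cxcr4 held 0, and the 2 Tenm4 windows held 2 and 3. Promoters were matched for 8 of the 10 genes, not for Vcam1 and Megf10.

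The receptor genes are Calcr and Cxcr4. Calcr (chromosome 6, 3685680 to 3764714, minus strand, GRCm38) encodes a receptor coupled to G proteins whose ligands are calcitonin and, in mouse satellite cells, collagen V. Its normalized counts were 2862, 3731, 5651 and 6173 in ketones libraries 1 to 4, against 8913, 7764, 8548 and 8184 in PBS libraries 1 to 4. Every ketones library was below every PBS library, and ketones libraries 1 and 2 were the lowest. Calcr fell by 0.92 ± 0.21 on the log2 scale (SE; adjusted p = 0.00634 by limma). Without ketones libraries 1 and 2 the difference was -0.50 (adjusted p = 0.00334 by limma), and over all alternatives the adjusted p ran from 0.00084 to 0.41.

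Cxcr4 (chromosome 1, 128588199 to 128592293, minus strand) encodes the receptor of the chemokine CXCL12, which guides cell migration. Its levels were 1060.4, 1037, 926 and 708 normalized counts in ketones, against 751, 915, 633 and 612 in PBS libraries. The groups overlapped, since ketones library 4 lay below PBS libraries 1 and 2. Cxcr4 had a log2 difference of 0.36, with a 95% interval of -0.040 to 0.76 (adjusted p = 0.175 by limma).

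Among 17 genes of ligands and partners of these receptors and of VCAM1, 5 were higher and 5 lower, with a median log2 difference of 0.01. The 3 with the smallest p were chains of collagen V, the ligand of CALCR that mouse satellite cells make themselves. Col5a3 was at 1137 ± 273 normalized counts in ketones and 6528 ± 1393 in PBS libraries, a log2 difference of -2.53 (adjusted p = 2.27e-06 by limma). Col5a1 fell by 1.91 and Col5a2 fell by 1.23 on the log2 scale. Collagen V is also made by fibroblasts. In the fibro-adipogenic list, Col3a1 (-3.46, adjusted p = 7.45e-06 by limma) and Col1a1 (-1.44, adjusted p = 0.0494) were lower too, 2 genes chosen after their values were seen. Of that list, 6 of 12 genes were higher and 3 lower, with a median log2 difference of 0.82. Its summed level was 65659 to 117192 normalized counts in ketones and 111482 to 155543 in PBS libraries. The part of fibroblasts in the collagen V differences was not tested. Chosen for their role after the values were seen, Ackr3, the second receptor of CXCL12, was higher (0.55, adjusted p = 0.0378 by limma), and Cxcl12 itself was at 6259 ± 1783 in ketones and 8255 ± 1908 in PBS libraries and did not pass (adjusted p = 0.202). Both Ackr3 and Cxcl12 are also expressed by endothelial or stromal cells, and the part of such cells was not tested.

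The adhesion genes are Vcam1, Cdh15 and Cd34. Vcam1 (chromosome 3, 116109949 to 116129688, minus strand) encodes an immunoglobulin family protein that binds integrin alpha4 beta1. Its normalized counts were 15580.1, 19331, 24553 and 40055 in ketones, against 40612, 42467, 46391 and 38702 in PBS libraries. Ketones libraries 1 to 3 lay below every PBS library, while ketones library 4 lay within the PBS range. Vcam1 fell by 0.85 ± 0.24 on the log2 scale (SE; adjusted p = 0.0206 by limma). The call was lost without ketones library 2 or without PBS library 1, 2 or 3 (adjusted p = 0.0507 to 0.0643 by limma), and without ketones libraries 1 and 2 the difference was -0.42 (adjusted p = 0.065). Over all alternatives the adjusted p ran from 0.00184 to 0.694.

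Cdh15 (chromosome 8, 122847966 to 122867397, plus strand) encodes M-cadherin, the adhesion protein between satellite cell and fiber, and had the largest difference of the 10 genes. Its normalized counts were 6013, 4789, 9116 and 5208 in ketones, against 20637, 19075, 20404 and 20036 in PBS libraries. The highest ketones library, number 3, was still below every PBS library. The part of other cells' RNA in the Cdh15 difference was not tested. Cdh15 fell by 1.72 ± 0.19 on the log2 scale (SE; adjusted p = 2.7e-05 by limma), with a 95% interval of -2.12 to -1.32. Among all tested genes its p ranked 158 of 14022.

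Of 7 cadherins and catenins that share this adhesion system, 1 was lower and 0 were higher, with a median log2 difference of -0.04. The gene that passed, Ctnnd1, encodes p120 catenin, which binds the cytoplasmic part of cadherins (6240.2 ± 1571 normalized counts in ketones and 8729 ± 447 in PBS libraries, adjusted p = 0.0491 by limma).

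Cd34 (chromosome 1, 194938819 to 194961279, plus strand) encodes a sialomucin that marks quiescent satellite cells in the mouse. It had 14575, 11528, 15896 and 17245 normalized counts in ketones, against 10799, 11277, 10671 and 10052 in PBS libraries. The groups did not overlap, though ketones library 2 and PBS library 2 lay close together. Cd34 rose by 0.45 ± 0.15 on the log2 scale (SE; adjusted p = 0.045 by limma), and the call was lost when any 1 of 6 libraries, ketones library 3 or 4 or any PBS library, was left out (adjusted p = 0.0725 to 0.129 by limma). Endothelial cells express Cd34 as well. The mean log2 level of the 17 endothelial genes differed from the PBS mean by 2.98, 2.93, 1.63 and 2.71 in ketones libraries 1 to 4. The part of endothelial RNA in the Cd34 difference was not tested.

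**Figure D2:**
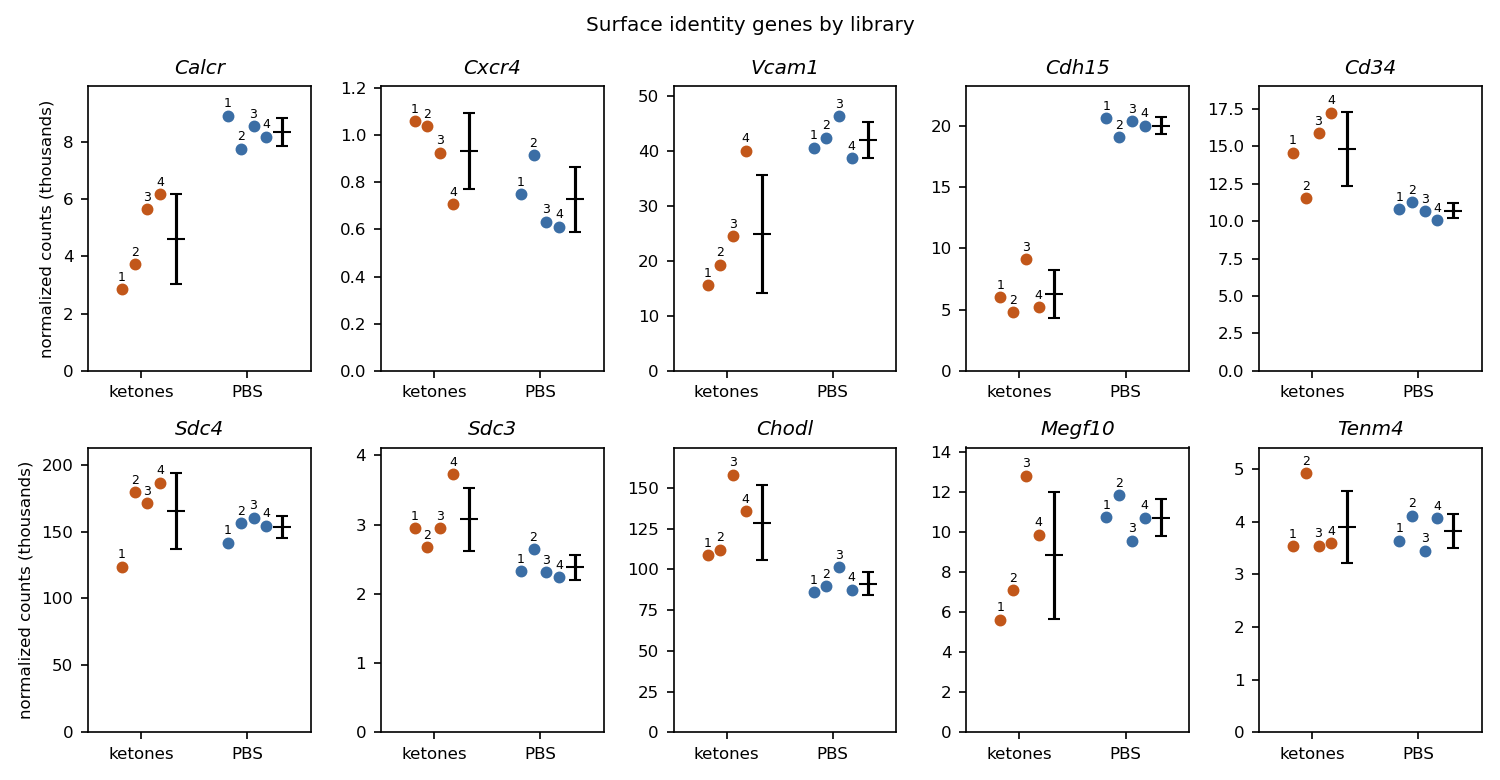
Normalized counts (axes from 0, scaled as labelled) of the 10 surface genes in each ketones and PBS library, with the library number above each point and a bar for the mean ± SD of 4 libraries. The ketones points lie below all PBS points for Calcr and Cdh15 and above them for Cd34, Sdc3 and Chodl, while Vcam1 spreads from 15580.1 to 40055 in ketones.

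Sdc4 and Sdc3 encode syndecans, transmembrane proteins with heparan sulfate chains that act as co-receptors for growth factors. Sdc4 (chromosome 2, 164424247 to 164443887, minus strand) had 123876, 179544, 171009 and 186472 normalized counts in ketones, against 141599, 156479.9, 160359.7 and 154454 in PBS libraries. Ketones library 1 was the lowest of all 8 and the other ketones libraries were the highest, so the groups overlapped. The log2 difference was 0.09, with a 95% interval of -0.36 to 0.54 (adjusted p = 0.777 by limma).

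Sdc3 (chromosome 4, 130792537 to 130826319, plus strand) had 2948, 2674, 2949.7 and 3730.1 normalized counts in ketones, against 2330.4, 2647, 2309.6 and 2236 in PBS libraries. All ketones libraries lay above all PBS libraries, by a narrow margin between ketones library 2 and PBS library 2. The log2 difference of 0.36, with a 95% interval of 0.050 to 0.67, did not pass (adjusted p = 0.0838 by limma), and passed without ketones libraries 1 and 2 (0.48, adjusted p = 0.0107). Over all alternatives the adjusted p ran from 6.56e-05 to 0.201. The log2 ratio of Sdc4 to Sdc3 within a library, which no scaling between libraries can change, was 5.74 ± 0.29 in ketones and 6.01 ± 0.12 in PBS libraries (SD, n = 4 each; two-sided exact permutation p = 0.114 over 70 assignments, smallest possible 0.0286).

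Of 10 genes of the syndecan and glypican family and its binding partners, 2 were higher and 3 lower. Gpc1, which encodes the glypican that binds fibroblast growth factor 2, fell to 3280 ± 369 normalized counts in ketones, against 8137 ± 795 in PBS libraries (log2 difference -1.31, adjusted p = 2.75e-05 by limma). Gpc4, another glypican gene, fell by 1.01 on the log2 scale, and Fn1, the gene of fibronectin, rose by 0.77. Chosen after the values were seen as the remaining syndecans, Sdc2 was lower (-0.47, adjusted p = 0.0385 by limma) and Sdc1 was at 1154 ± 239 normalized counts in ketones and 1368 ± 208 in PBS libraries and did not pass (adjusted p = 0.315).

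Of 20 genes of heparan sulfate synthesis and editing, 5 were lower and 1 higher, with a median log2 difference of -0.04. Ext2, a subunit of the polymerase that lengthens the chain, fell by 0.92 (2388 ± 426 normalized counts in ketones and 4479 ± 288 in PBS libraries). Hs2st1, the 2-O-sulfotransferase, fell by 0.84. Hs3st1, a 3-O-sulfotransferase, rose by 1.94, to 406 ± 167 normalized counts in ketones, against 100.1 ± 31.6 in PBS libraries.

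Chodl, Megf10 and Tenm4 encode transmembrane proteins with lectin-like, epidermal growth factor-like and teneurin extracellular parts. Chodl (chromosome 16, 78930948 to 78951733, plus strand), the chondrolectin gene, had 108707, 112137, 158225 and 135993 normalized counts in ketones, against 85886, 89933, 101492 and 87696 in PBS libraries. All ketones libraries lay above all PBS libraries. The log2 difference of 0.48, with a 95% interval of 0.060 to 0.91, did not pass by limma (adjusted p = 0.0886), but it passed on the recovered reads by edgeR (adjusted p = 0.034) and DESeq2 (adjusted p = 0.00784), and by limma without ketones libraries 1 and 2 (0.69, adjusted p = 0.00169). Over all alternatives the adjusted p ran from 6.29e-05 to 0.281.

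Megf10 (chromosome 18, 57133090 to 57297467, plus strand), whose protein acts with Notch in mouse satellite cells, had 5627, 7096, 12813 and 9881 normalized counts in ketones, against 10761, 11833, 9573 and 10721 in PBS libraries. Ketones libraries 1 and 2 lay below all PBS libraries and ketones library 3 above them. The log2 difference was -0.34, with a 95% interval of -0.81 to 0.13 (adjusted p = 0.27 by limma), and without ketones libraries 1 and 2 it was 0.074.

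Tenm4 (chromosome 7, 96171246 to 96911093, plus strand), a teneurin gene needed for satellite cell quiescence in the mouse, had 3535, 4921, 3543 and 3588 normalized counts in ketones, against 3639, 4113, 3449 and 4071 in PBS libraries. The groups overlapped, with ketones library 2 highest of all. The log2 difference was 0.02, with a 95% interval of -0.31 to 0.34 (adjusted p = 0.945 by limma), which bounds a change of this transcript more closely than for Sdc4 or Megf10.

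Of 14 tested genes among the teneurins, their latrophilin receptors, MEGF proteins, lectins, CD34-related mucins and VCAM1-related proteins, 5 were higher and 2 lower, with a median log2 difference of 0.52. The 3 with the smallest p, Podxl, Emcn and Icam2, rose by 2.20, 2.94 and 2.62 on the log2 scale. These encode podocalyxin, a relative of CD34, endomucin and an adhesion protein, all known from endothelium, and Emcn is also in the endothelial list. Of 8 genes of ectodomain shedding, the proteolytic release of surface proteins, 2 were higher and 1 lower. Timp3, an inhibitor of metalloproteinases, rose by 1.30, Adam15 rose by 1.31 and Adam19 fell by 1.37 on the log2 scale. Each of these counts stands beside the 25.7% of all tested genes that changed, and the lists were not tested as sets.

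**Figure D3:**
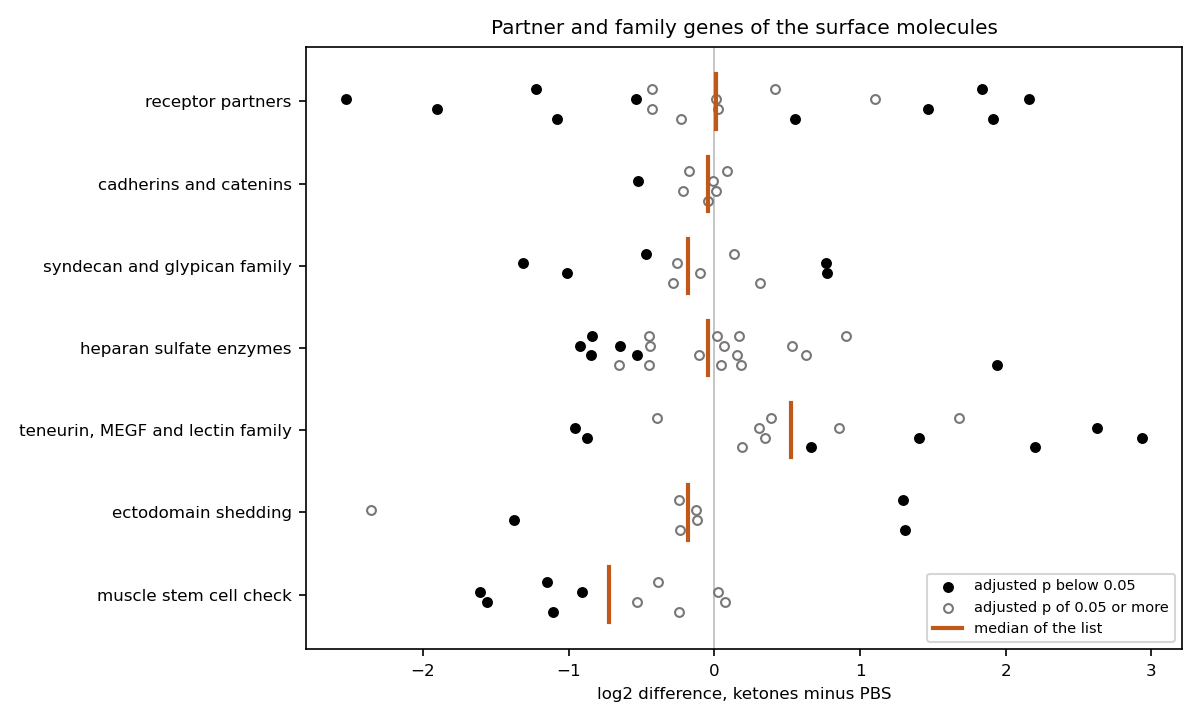
Log2 difference, ketones minus PBS, of each tested gene in 6 lists of partners and relatives and in the 10 muscle stem cell genes, with filled points for genes that passed by limma and a bar for each list's median. The muscle stem cell genes have a median of -0.72, and the medians of the other lists lie between -0.18 and 0.52.

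**Figure D4:**
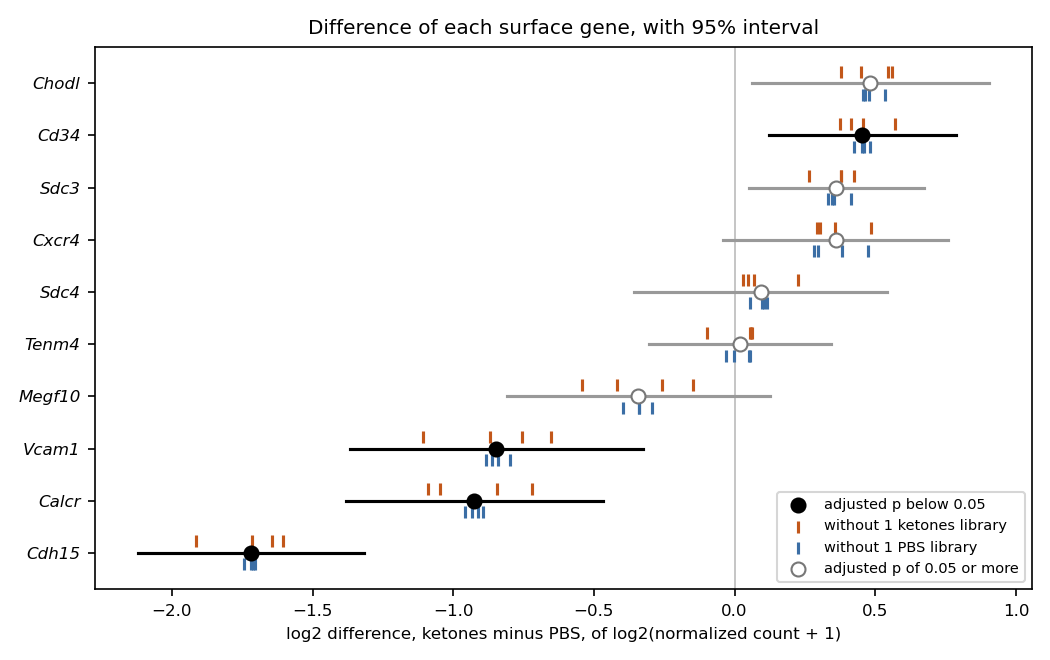
Log2 difference, ketones minus PBS, of the 10 surface genes with its 95% interval from limma, filled where the adjusted p was below 0.05, and ticks for the difference with 1 ketones library (above the line) or 1 PBS library (below) left out. Cdh15 stays between -1.91 and -1.60 under every such omission.

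The 10 genes also differed in how evenly the libraries of a group held them. The SD of log2 values was larger in ketones than in PBS libraries for all 10, and for 80.5% of all tested genes. The widest were Vcam1, with an SD of 0.58 in ketones and 0.11 in PBS libraries, Megf10, with 0.52 in ketones and 0.13 in PBS, and Calcr, with 0.52 in ketones and 0.085 in PBS. For each of these 3, ketones libraries 1 and 2 were the lowest of the 8. Cxcr4 was spread alike in both groups (0.27 each).

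The profiles of the 10 genes over the 8 libraries were compared by the root-mean-square difference between log2 values centred on their means. Cd34 and Sdc3 were the closest pair of surface genes (0.10), followed by Cd34 and Chodl (0.15) and by Calcr and Vcam1 (0.17). Among all tested genes, Cand1 and Antxr2 lay closest to Calcr (0.070 and 0.095), Vwa8 and Cad to Cdh15 (0.13 each), Slc11a2 and Rab8b to Vcam1 (0.10 and 0.12), and Mtfr1 and Trappc1 to Cd34 (0.078 and 0.092). For the genes that did not pass, Cab39 and Rhoa lay closest to Sdc4, Cr1l and Plekha2 to Sdc3, H2aj and Nynrin to Cxcr4, Rap1b and Ccnc to Chodl, Golga3 and Zfp445 to Megf10, and Pptc7 and Ntmt1 to Tenm4, at 0.055 to 0.082. Gene profiles over 8 libraries share depth and scaling, so this is a description only.

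Levels of different genes were compared per kilobase of annotated exon. Sdc4 was first in both groups, at 64870 ± 11104 normalized counts per kilobase in ketones and 60158 ± 3191 in PBS libraries, and Chodl second, at 23450 ± 4204 in ketones and 16618 ± 1279 in PBS libraries. Tenm4 was last, at 185 ± 32.5 in ketones and 182 ± 15.5 in PBS libraries. Cdh15 stood in place 5 in ketones libraries, at 1932 ± 602, and in place 3 in PBS libraries, at 6164 ± 212 with no library overlapping Vcam1 below it. In ketones, Vcam1 overlapped Cd34, Cd34 overlapped Cdh15, Cdh15 overlapped Calcr and Calcr overlapped Megf10. Among neighbours in PBS libraries, only Cd34 with Megf10 and Cxcr4 with Sdc3 overlapped. In ketones Cxcr4 and Sdc3 overlapped too. The length is that of all annotated exons of a gene joined, which need not be the length of the transcript these cells make.

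**Figure D5:**
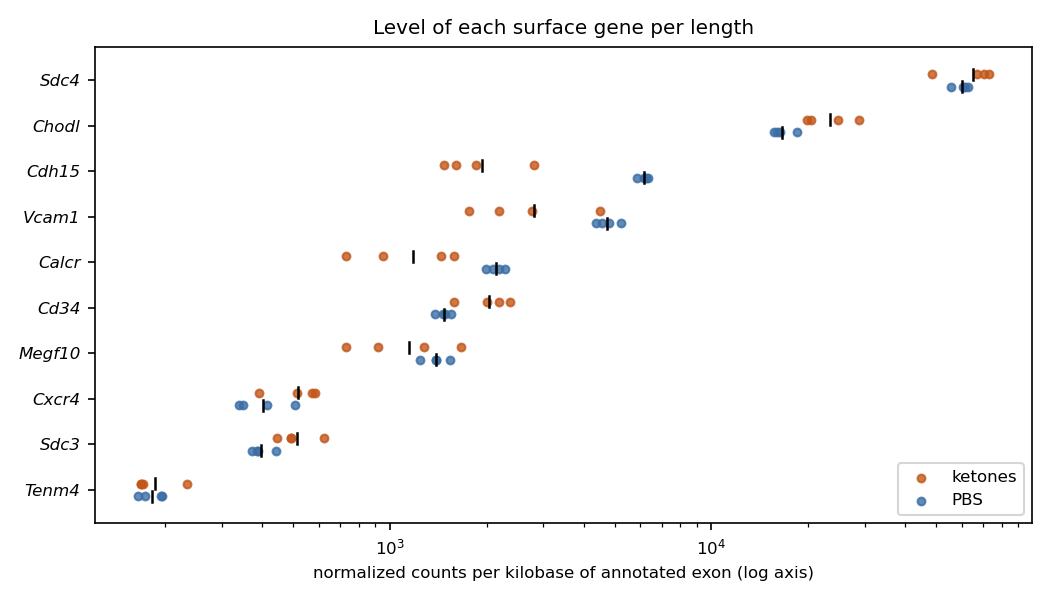
Normalized counts per kilobase of annotated exon (log axis) of the 10 surface genes in each ketones (upper row) and PBS (lower row) library, with a bar for each mean, ordered by the PBS mean. Cdh15 and Calcr are shifted left in ketones, and Sdc4 leads in both groups.

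When values were instead divided by the level of the 10 muscle stem cell genes in each library, the median log2 difference of all tested genes became 0.72, and 8128 genes were higher and 297 lower, in place of 1800 each. On that scale Cdh15 was still lower (-0.98, adjusted p = 0.000332 by limma), and Calcr (-0.19) and Vcam1 (-0.11) no longer passed. Cd34 (1.19), Chodl (1.22), Sdc3 (1.10), Cxcr4 (1.10), Sdc4 (0.83) and Tenm4 (0.76) passed as higher, and Megf10 (0.40) did not pass. This scale takes the 10 muscle stem cell genes as equal in both groups, and 5 of them were themselves called lower. Which scale holds per muscle stem cell was not tested.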

How the data were processed

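RNA from sorted hindlimb muscle stem cells was measured in 4 ketones and 4 PBS libraries, with groups and numbers taken from the labels. Per the labels' protocols, cDNA was primed with oligo(dT) in a kit for small inputs, then fragmented and amplified, so PCR copies count as reads and polyadenylated RNA is favoured. Per the submitters' processing notes, STAR, Trim Galore, DESeq2, Subread and featureCounts were used with mm10. Their versions and settings, strand included, are not given here, and reads of a gene and of one that overlaps it may be mixed.

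The authors deposited a signal table in which each library's read counts are scaled by a single size factor. Dividing by the smallest step gave whole reads for 100% of values in each library, to a tolerance of 0.001. Among 25239 rows, 2 have dates instead of symbols and were dropped. After the filter (a mean of 10 or more), log2 of the normalized count plus 1 was the response, and limma 3.58.1 in R 4.3.3 (lmFit, eBayes with a trend, no covariates) was fitted, two-sided, with Benjamini-Hochberg adjustment over 14022 genes and a threshold of 0.05. Adjusted p-values are from limma unless edgeR 4.0.16 or DESeq2 1.42.0 is named. Among the fits, counts of whole reads entered only those alternatives and the TMM scaling. The depths and the comparison of library pairs below also used them. The fit was tested on simulated data with the same dispersion in both groups. That test does not cover the larger spread among the ketones libraries. Both groups' library pairs, 12 in all, differed by more than counting noise (lowest chi-square over its degrees of freedom, 13.4).

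Coordinates and exon lengths are from GENCODE M21 on the same build, promoters from RefSeq. The 10 genes, the lists, the tests and the alternatives (pseudocount, filter, scaling, tool, library block, library weights, omitted libraries) were chosen with earlier results of these data known. Named from each list were the 3 called genes with the smallest p, from the muscle stem cell list all 10 genes, from the other cell type lists the genes of the sort gate and the first gene, and for each surface gene the 2 closest profiles without predicted genes. One gene this rule names is not reported here.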

Additional observations from a re-analysis of the deposited data

Results flagged for a closer look

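Among 22 groups of 4 values (10 genes and the ratio of Sdc4 to Sdc3, in each group), 1 held a library far from the other 3, and chance gives about 1 in 20. Tenm4 had 4921 normalized counts in ketones library 2 and 3535 to 3588 in the other ketones libraries, so that the gap to the nearest took up 0.962 of the whole range, against 3449 to 4113 in PBS libraries. Without that library the log2 difference of Tenm4 was -0.099 (adjusted p = 0.617 by limma).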

How the results depend on the processing

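Of 210 values of the 10 genes under 21 alternatives, 170 kept their direction and their side of the threshold, 16 lost the call, 16 gained it and 8 changed sign. Cdh15 kept its call as lower under all 21, at -1.91 to -0.98, and Calcr under 20. Tenm4 changed sign with TMM scaling (-0.0022), library weights (-0.022), without ketones libraries 1 and 2 (-0.095) and in 3 of the omissions of 1 library (range -0.099 to 0.060), and Megf10 with scaling to the muscle stem cell genes (0.40) and without ketones libraries 1 and 2 (0.074). The number of the 10 genes called higher, 1 as reported, was 0 with no filter and with TMM scaling, 2 with edgeR, DESeq2 or robust estimation, 3 with equal totals, library weights or without ketones libraries 1 and 2, 6 with scaling to the muscle stem cell genes, and 0 to 2 with 1 library left out. The number called lower was 1 with that scaling and 2 to 3 with 1 library left out. Over all tested genes that scaling gave 8128 higher and 297 lower (96.5% of calls higher, against 50% as deposited), and leaving out 1 library gave 1271 to 1953 higher and 1083 to 2123 lower, with both lowest counts without PBS library 1, and 1198 lower without PBS library 3. The log2 ratio of Sdc4 to Sdc3 differed by -0.38 to -0.15 with 1 library left out. The lowest, without ketones library 2, passed (exact permutation p = 0.0286, the smallest possible with 1 library left out). The other omissions did not pass (exact permutation p = 0.114 to 0.257). Libraries that share a number had deviations correlated at 0.11, -0.011, 0.0030 and -0.061 for numbers 1 to 4. Libraries of different numbers ranged from -0.11 to 0.097, so number 1 was the highest of all. With so few libraries these values neither show nor exclude that the numbers pair them. With the replicate block 0 of the 10 genes were higher and 3 lower, and Cd34 was at 0.45 (adjusted p = 0.0698 by limma). The ratio of Sdc4 to Sdc3 under the block differed by -0.27 (exact paired permutation p = 0.25). With 4 pairs that test cannot reach a p below 0.05, so no conclusion is drawn from it. Each of the 10 genes had at least 440 reads in every library, and the effect of depth was not tested.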
